A study of Mus musculus and Homo sapiens with 40 samples.

Results

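The genes compared here carried a promoter site of the stress factor ATF4, of the CEBPA isoform p30, or of both, in ChIP-seq of 2 blood cell lines from different species. ATF4 sites came from KO-52, a human acute myeloid leukemia line, and p30 sites from HPC-7, a mouse hematopoietic progenitor line. A protein-coding gene counted as a target when a peak summit lay within 1000 bp of the start of any of its protein-coding transcripts, and genes were matched between species by symbol written in capitals. Of 16455 symbols found in both annotations, 822 were ATF4 targets and 1996 were p30 targets. Both factors had a site at 219 genes, called shared targets below. A further 603 genes were targets of ATF4 only, 1777 of p30 only, and 13856 of neither. A symbol without a partner in the other species left out 86 ATF4 targets and 247 p30 targets.

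The series holds 40 samples, and each of the lists compared was called on 1 ChIP library. KO-52 cells, which carry mutations in both CEBPA alleles, were treated with tunicamycin, an inhibitor of protein glycosylation in the ER, at 2 µg/mL for 4 h, and their endogenous ATF4 was precipitated after an extra crosslinking step with DSG. HPC-7 cells have very little CEBPA of their own and were transduced with a retrovirus carrying p30 fused to ERT2, a hydroxytamoxifen-responsive fragment of the estrogen receptor. Per the methods of the study such cells received hydroxytamoxifen before experiments, which the sample labels do not name, and the labels give the p30 cells as untreated. Neither LPS nor tunicamycin was given to them. For comparison, single libraries of the same p30 cells precipitated through the receptor fragment of the fusion (anti-ER p30), and of HPC-7 cells with the full-length isoform p42 (anti-CEBPA p42 and anti-ER p42), were used. H3K27ac, a histone mark of active promoters and enhancers, was used as peak lists pooled from 3 samples of each HPC-7 line. As a check of the line, an H3K27ac summit lay within the same distance of a start site of 7 of 9 progenitor marker genes in p30 cells (all but Erg and Cd34) and of 0 of 3 lymphoid ones. No list has a replicate of its own kind, so no difference below was tested. Intervals are Wilson 95% intervals over genes and cover counting error only, although neighboring genes can share a site and are not independent. The peak lists do not give the depth of each library, and the study states only a range over all its samples. Species, cell line, stress treatment, antibody and crosslinking differed together between the 2 lists, and their parts in any difference cannot be told apart.

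ATF4 is a basic leucine zipper factor whose translation rises when the integrated stress response lowers general protein synthesis. It drives genes for amino acid supply, tRNA charging and stress feedback. CEBPA, a factor of the same structural class, directs myeloid differentiation, and its p30 isoform lacks an N-terminal part of p42 while keeping the DNA-binding domain. ATF4 can pair with C/EBP proteins, and such pairs read a composite element with a C/EBP site joined to an ATF4 site, whereas C/EBP dimers read a palindrome. When either isoform was precipitated from overexpressing cells, the study detected ATF4 together with p42 and not together with p30.

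The composite element TGATGCAA and the C/EBP sequences TTGCGCAA, a palindrome, and TTGCACAA, which is not one, were searched on both strands. Below are 30 bases around the copy nearest to the summit, read on the strand that holds these letters, with the element in capitals. The mouse copies of the second set are instead those nearest to a start site. The first set shows shared targets with the composite element at the human ATF4 summit and also at the mouse p30 summit. DDIT3 encodes CHOP, STK40 a serine/threonine kinase, SLC7A1 a cationic amino acid transporter, and SARS1 and MARS1 the seryl- and methionyl-tRNA synthetases.
DDIT3 human: gggggcggggaTGATGCAAtgtttggcaac
DDIT3 mouse: gggggcggggaTGATGCAAtgtttggcaac
STK40 human: agtcacttgccTGATGCAAtccctttaaag
STK40 mouse: agtcaccagacTGATGCAAtccctttaaag
SLC7A1 human: ggcgtggtgcaTGATGCAAcaccgagtgag
SLC7A1 mouse: ggcgtggtgcaTGATGCAAcagcgggaggg
MARS1 human: gaatccctcgcTGATGCAAccggaaccggc
MARS1 mouse: ggagcccacgcTGATGCAAtcggaaccggc
SARS1 human: tttgatttgtcTGATGCAAtaggtctgcaa
SARS1 mouse: ctcgggtagtcTGATGCAAtaggtctgcaa

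Over these 30 bases the species were identical at 30 positions for DDIT3, 27 for STK40, 26 for SLC7A1, 26 for MARS1 and 25 for SARS1. These pairs lie toward the more alike end of the shared genes with the element at both summits. Among others, MTHFD1L had 28 identical bases, WARS1 19, PYCR1 15 and SHMT2 10. On GRCh38 the DDIT3 element lay at chr12:57520802-57520831 (+ strand), in an intron of annotated DDIT3 transcripts and of MBD6, and on GRCm39 at chr10:127126350-127126379 (− strand), in an intron of Ddit3. The STK40 element lay outside protein-coding genes in both species, at chr1:36386629-36386658 (human, −) and chr4:125997070-125997099 (mouse, +). The SLC7A1 element lay in an intron of the gene, at chr13:29595139-29595168 (human, −) and chr5:148336299-148336328 (mouse, −). The MARS1 element lay in an untranslated exon, at chr12:57488053-57488082 (human, −) and chr10:127147507-127147536 (mouse, +). The SARS1 element lay in an exon in human, at chr1:109214986-109215015 (+), and in an intron in mouse, at chr3:108351506-108351535 (−).

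The second set shows ATF4-only targets whose mouse promoter also holds the composite element, but where the anti-CEBPA p30 list had no site. JDP2 did have an anti-ER p30 site and an anti-CEBPA p42 site, and CHAC1 and SLC7A11 had neither. CHAC1 encodes a glutathione-degrading enzyme, SLC7A11 the cystine transporter, and JDP2 a leucine zipper repressor.
CHAC1 human: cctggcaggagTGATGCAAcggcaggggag
CHAC1 mouse: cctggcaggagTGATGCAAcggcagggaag
SLC7A11 human: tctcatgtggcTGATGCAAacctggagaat
SLC7A11 mouse: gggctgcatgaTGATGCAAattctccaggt
JDP2 human: atagccggggcTGATGCAAcccgtcccgcc
JDP2 mouse: atagccggggcTGATGCAAcccgtcccgcc

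The CHAC1 element lay in an untranslated exon, at chr15:40953251-40953280 (human, −) and chr2:119181519-119181548 (mouse, −), and 29 of the 30 bases were identical. The JDP2 element lay in an intron at chr14:75427995-75428024 (human, +) and in an untranslated exon at chr12:85646146-85646175 (mouse, +), with 30 identical bases. The SLC7A11 element lay outside protein-coding genes, at chr4:138242426-138242455 (human, −) and chr3:50398091-50398120 (mouse, +). As printed, 12 of the 30 bases, the element included, were identical. However, the bases printed after the element in mouse are the exact reverse complement of those after it in human. The copies shown are thus unlike copies, on either side of a conserved stretch, and their identity does not measure how well the SLC7A11 promoter is conserved. The last pair shows C/EBP palindromes at mouse p30 summits. TAL1, a progenitor transcription factor, was a shared target, and PNP, an enzyme of purine salvage, was the best-ranked p30-only target. Both elements lay in an intron of the gene, on the + strand, at chr4:114914197-114914226 and chr14:51181617-51181646.
TAL1 mouse: cccttttccccTTGCGCAAtagacagaaaa
PNP mouse: ttatttcaagaTTGCGCAAtctatgaaaaa

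Targets of the 2 factors coincided more often than the product of their shares gives. An ATF4 site was present at 5% of all genes compared and a p30 site at 12.1%, so 99.7 shared genes would be expected if the lists were independent, against 219 observed, a ratio of 2.2 (1.96 to 2.45). Read from the ATF4 side, 26.6% (23.7 to 29.8) of ATF4 targets had a p30 site, against 11.4% (10.9 to 11.9) of the 15633 genes without ATF4. Read from the p30 side, 11% (9.68 to 12.4) of p30 targets had an ATF4 site, against 4.17% (3.86 to 4.51) of the 14459 genes without p30. The 219 genes rested on 211 distinct pairs of summits, and 15 of them shared a pair with a neighbor. Much of both lists lay at promoters that carried H3K27ac in HPC-7 cells, and genes with many start sites offer more sequence to both factors. Summed over classes of H3K27ac and of the number of start sites, 129 shared genes would be expected, a ratio of 1.69. Among the 9949 genes with H3K27ac at the mouse promoter the ratio was 1.84, with 205 shared genes against 112 expected, and 31.9% (28.4 to 35.6) of ATF4 targets had p30 against 16.4% (15.6 to 17.1) of other genes. Among the 6506 genes without the mark it was 1.9, with 14 against 7.37.

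The overlap was highest among the strongest ATF4 sites. ATF4 targets were ranked by the p-value of their best site and divided into 5 groups of nearly equal size. In the best group 40.6% (33.4 to 48.2) had a p30 site, while the following groups had 24.2%, 18.9%, 22.6% and 26.8%, so the share did not fall steadily. The p30 targets ranked in the same way had an ATF4 site in 14.2% (11.2 to 18), 11.8%, 12.8%, 7.27% and 8.77%. The median fold enrichment of ATF4 sites was 9.75 at shared and 8.15 at ATF4-only genes, and that of p30 sites was 9.27 at shared and 7.92 at p30-only genes. Shared sites also lay closer to the start site, with a median distance of 232 bp against 311 bp for ATF4 and 224 bp against 299 bp for p30. Just inside the limit of 1000 bp were ATP8B4, with its nearest ATF4 summit at 991 bp and p30 summit at 4 bp, and SARS1, at 998 and 938 bp. Just outside were CRYZL1, at 819 and 1002 bp, and IL23A, at 1020 and 279 bp.

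**Figure D1:**
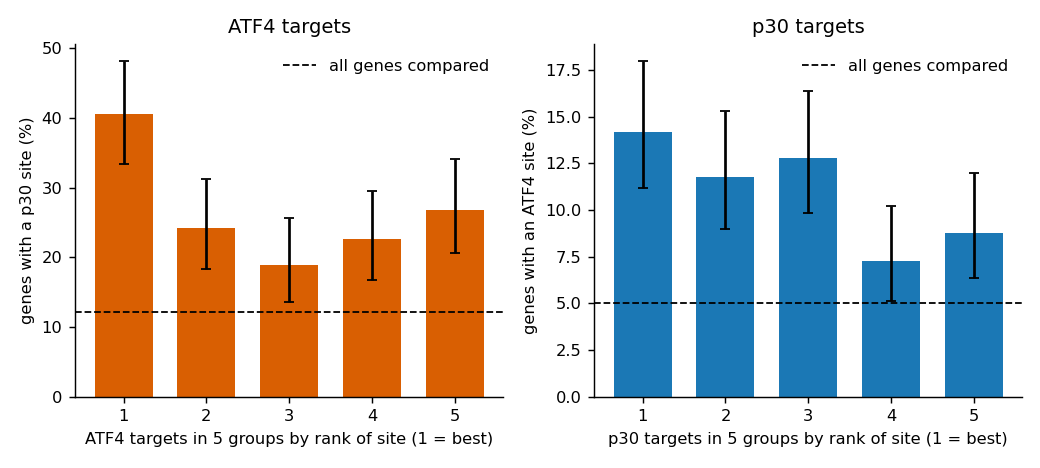
Percent of targets of one factor that had a site of the other, in 5 groups by rank of their best site (1 is the best), with Wilson 95% intervals. Dashed lines give the share over all genes compared, 12.1% for p30 and 5% for ATF4. The best group of ATF4 targets reached 40.6%.

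Genes of the ATF4 programme were shared targets more often than all genes compared, though most shared targets lay outside these lists. The lists for amino acid and one-carbon synthesis, amino acid transport, tRNA charging, stress effectors and ER proteins together have 91 genes. Of these, 52 were ATF4 targets (57.1%, against 5% of all genes) and 46 were p30 targets (50.5%, against 12.1%). Both factors had a site at 34, or 37.4% (28.1 to 47.6), against 1.33% (1.17 to 1.52) of all genes compared. These 34 genes made up 15.5% of all shared targets. The shares of the 2 factors within the 91 genes would alone give 26.3 shared genes. The lists hold known ATF4 targets, so their high ATF4 share describes the list and is not independent evidence.

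Among tRNA charging genes every ATF4 target was also a p30 target. Of 20 cytosolic aminoacyl-tRNA synthetase genes, which encode the enzymes or subunits that load amino acids onto tRNA, 11 were shared, 3 had p30 only and 6 neither. Shared genes were 55% (34.2 to 74.2) of the list, against 1.33% of all genes. A p30 site was present at 70% (48.1 to 85.5), against 12.1% of all genes, and an ATF4 site at 55%, against 5%. The shared ones were AARS1, CARS1, EPRS1, IARS1, LARS1, MARS1, NARS1, SARS1, TARS1, WARS1 and YARS1. YARS1, for tyrosine, had the best-ranked of all ATF4 sites, with 82.2-fold enrichment 7 bp downstream of a start site, and its p30 site had a fold of 6.41. IARS1, for isoleucine, had 49.5-fold ATF4 enrichment and the strongest p30 site of the list, at 30.7-fold. SARS1 followed with 44.8-fold for ATF4 and 20.5-fold for p30. At WARS1 and TARS1 the summits of the 2 species lay at nearly the same place, −6 and −11 bp from the start for WARS1 and 26 and 17 bp for TARS1, where negative values are upstream. Their p30 sites were weak, with folds of 6.52 and 4.66. Over the 11 shared genes the median fold was 44.8 for ATF4 and 7.61 for p30. GARS1, FARSB and VARS1 had p30 sites of 13.5-, 10.6- and 6.26-fold and no ATF4 site.

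Enzymes of amino acid and one-carbon synthesis were split between both kinds of target. Of 16 genes, 8 were shared, 5 had ATF4 only, 1 had p30 only and 2 neither. Shared genes were 50% (28 to 72) of the list, against 1.33% of all genes. An ATF4 site was present at 81.2% (57 to 93.4) and a p30 site at 56.2% (33.2 to 76.9), against 5% and 12.1%. Shared were the mitochondrial folate enzymes SHMT2, MTHFD2, MTHFD1L and ALDH1L2, the phosphoserine phosphatase PSPH, the proline enzyme PYCR1 and the aminotransferases GPT2 and GOT1. SHMT2 had 68.7-fold ATF4 and 19.6-fold p30 enrichment, and PYCR1 42.1-fold and 25.3-fold, with summits at −63 and −85 bp. PSPH and GPT2 had strong ATF4 sites, at 52.9- and 50.7-fold, beside weak p30 sites at 4.22- and 6.05-fold. Asparagine synthetase (ASNS, 40.3-fold), PCK2 (35.6-fold), the first 2 enzymes of the serine pathway PHGDH (32.3-fold) and PSAT1 (21.3-fold), and CTH of the transsulfuration pathway (18.4-fold) had an ATF4 site only. Of these, PCK2 and PSAT1 had an anti-ER p30 site within the limit, PSAT1 and PHGDH had an anti-ER p42 site, and ASNS and CTH had no site in any of the 4 CEBPA lists. The p30-only gene was ALDH18A1, at 5.96-fold.

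Among 10 amino acid transporter genes, 4 were shared, 4 had ATF4 only, 1 had p30 only (SLC43A1, 13.9-fold) and 1 neither. ATF4 targets made up 80% (49 to 94.3) and p30 targets 50% (23.7 to 76.3), against 5% and 12.1% of all genes. SLC3A2, the heavy chain of several heterodimeric transporters, had a 56.4-fold ATF4 site 31 bp downstream of a start and a 9.31-fold p30 site 27 bp upstream. Its light chain partners SLC7A11, at 46.3-fold, and SLC7A5, at 9.75-fold, had no p30 site. SLC7A1 paired a 50.4-fold ATF4 site with a p30 site of only 3.92-fold. SLC38A2 had folds of 44.2 and 12.1. SLC1A4 had the strongest p30 site of the 4, with 12.5-fold for ATF4 and 22.8-fold for p30, at 32 and 64 bp. SLC1A5 and SLC6A9 had ATF4 sites of 34.6- and 40.6-fold and no p30 site.

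Of 21 genes for stress effectors and feedback, 6 were shared, 8 had ATF4 only, 2 p30 only and 5 neither. Shared genes made up 28.6% (13.8 to 50) of the list, against 1.33% of all genes. ATF4 targets made up 66.7% (45.4 to 82.8) and p30 targets 38.1% (20.8 to 59.1), against 5% and 12.1% of all genes. TRIB3, a pseudokinase that restrains ATF4, had a 95.1-fold ATF4 site and a 13-fold p30 site. DDIT3 had folds of 46.8 and 27.1 and CEBPG, a C/EBP partner of ATF4, 49 and 9.31. PPP1R15B, a subunit of the phosphatase that acts on eIF2α, had 27.1 and 13.4. SESN2 and EIF4EBP1, whose products act in the mTORC1 pathway, had ATF4 sites of 47.6- and 40.7-fold and p30 sites of 4.64- and 10.1-fold. ATF4 only was found at CHAC1, with 87.7-fold enrichment and the fourth rank of the ATF4 list, and at DDIT4, an mTORC1 inhibitor, with 55.6-fold. JDP2 (45.3-fold), ATF3 (22.4-fold), VLDLR (11.5-fold), GDF15 (11.1-fold), FGF21 (7.9-fold) and STC2 (3.9-fold) were also without p30. JDP2 and ATF3 did have an anti-ER p30 site within the limit, and JDP2 an anti-CEBPA p42 site of 7.68-fold. The ATF4 and ATF5 genes themselves had p30 sites of 6.98-fold each and no ATF4 site.

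Of 24 genes for ER chaperones, degradation and sensors, 5 were shared, 1 had ATF4 only, 5 p30 only and 13 neither. ATF4 targets made up 25% (12 to 44.9) and p30 targets 41.7% (24.5 to 61.2), against 5% and 12.1% of all genes. HERPUD1, a component of ER-associated degradation, had folds of 46.3 for ATF4 and 30.3 for p30. XBP1 and ATF6, 2 transcription factors of the unfolded protein response, had ATF4 sites of 38.4- and 16.9-fold and p30 sites of 6.74- and 6.32-fold. HYOU1 and CALR, both chaperones, had ATF4 sites of 9.36- and 4.98-fold. ERO1A, an oxidase of disulfide formation, had a 20.5-fold p30 site only, while its paralog ERO1B had a 6.83-fold ATF4 site only. DNAJB9, SEL1L, MANF and CANX had p30 sites of 6.32- to 8.43-fold. Of 15 autophagy genes, 7 had a p30 site (46.7%, 24.8 to 69.9, against 12.1% of all genes) and 2 an ATF4 site (13.3%, 3.74 to 37.9, against 5%). ATG7 and NBR1 were shared and TFEB, BECN1, ATG16L1, ATG3 and SQSTM1 had p30 only, led by the 27.9-fold site of TFEB, a regulator of lysosomal genes. In the list of 9 C/EBP and Tribbles genes, CEBPG, DDIT3 and TRIB3 were shared and TRIB1 had a 13.9-fold p30 site only. Shared genes were 33.3% (12.1 to 64.6) of this list, against 1.33% of all genes. A p30 site was present at 44.4% (18.9 to 73.3), against 12.1%, and an ATF4 site at 33.3%, against 5%.

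Among blood cell genes p30 targets outnumbered ATF4 targets, and most genes were targets of neither. The lists of myeloid and progenitor transcription factors, growth factor and innate receptors, neutrophil genes and inflammatory genes together have 94 genes. Of these, 59 were targets of neither factor, 31 were p30 targets (33%, against 12.1% of all genes) and 7 were ATF4 targets (7.45%, against 5%). Only 3 were shared, or 3.19% (1.09 to 8.97), with 2.31 expected from the 2 shares. They were TAL1, NFKBIA, which encodes an inhibitor of NF-κB, and PTGS2, which encodes the inducible cyclooxygenase of prostaglandin synthesis. TAL1 had folds of 23.3 for ATF4 and 39.6 for p30. At NFKBIA and PTGS2 the ATF4 sites were weak, at 6.91- and 6.96-fold, and the p30 sites strong, at 33.5- and 27.5-fold. The 34 shared genes of the stress and amino acid lists had a median ATF4 fold of 44.9, against 9.75 at all shared genes. Their median p30 fold was 9.91, against 9.27 at all shared genes. Folds come from separate lists and were compared only within their own list.

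Among p30-only transcription factors, NFE2 had a 51.8-fold site, SPI1 (PU.1) 32.6-fold, ID1 19.1-fold and MEIS1 16.8-fold. IKZF1, ETV6, RUNX1 and ERG had 14.8-, 10.4-, 8.78- and 4.58-fold sites. LMO2, with 11.9-fold, was ATF4 only. The receptor genes TNFRSF1A (20.7-fold), CSF3R (16.3-fold), CSF2RB (14.3-fold), IL1R1 (10.5-fold), IL3RA (8.38-fold) and CSF1R (6.98-fold) had p30 only, and CSF2RA (8.56-fold) ATF4 only. Among neutrophil genes LTF (10.1-fold), MPO and CYBA (6.98-fold each) had p30 only and CTSG (6.87-fold) ATF4 only. Of 34 inflammatory genes, 10 had p30 only, led by IL1RN (25.1-fold), NFKBIZ (14.1-fold), CCL3 (13.5-fold) and TNFAIP2 (9.81-fold), and CCL4 (8.25-fold) had ATF4 only. With shared genes counted, p30 targets made up 34.6% (19.4 to 53.8) of the transcription factor list and 37.5% (18.5 to 61.4) of the receptor list. They made up 35.3% (21.5 to 52.1) of the inflammatory list, against 12.1% of all genes. In the neutrophil list the p30 share was 22.2% (9 to 45.2), an interval that includes 12.1%. Of 18 AP-1 genes, 0 were shared, which allows up to 17.6% and so cannot be told from the 1.33% of all genes. MAFG (25.1-fold), MAFF (10.1-fold), ATF7 (8.43-fold) and FOSB (6.87-fold) had p30 only. This was 22.2% (9 to 45.2) of the AP-1 list, an interval that also includes 12.1%.

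Housekeeping genes gave shares close to those over all genes. Of 198 genes for cytosolic and mitochondrial ribosomal proteins and proteasome subunits, 14 (7.07%) were ATF4 targets and 20 (10.1%) p30 targets. None was shared, which allows a share of up to 1.9% by the Wilson interval, with 1.41 expected. Of 16 DNA replication genes, CDC6 was shared, MCM6 had ATF4 only, MCM3 p30 only and 13 neither. Each factor had a site at 12.5% (3.5 to 36) of them, an interval that includes the 5% and 12.1% of all genes.

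**Figure D2:**
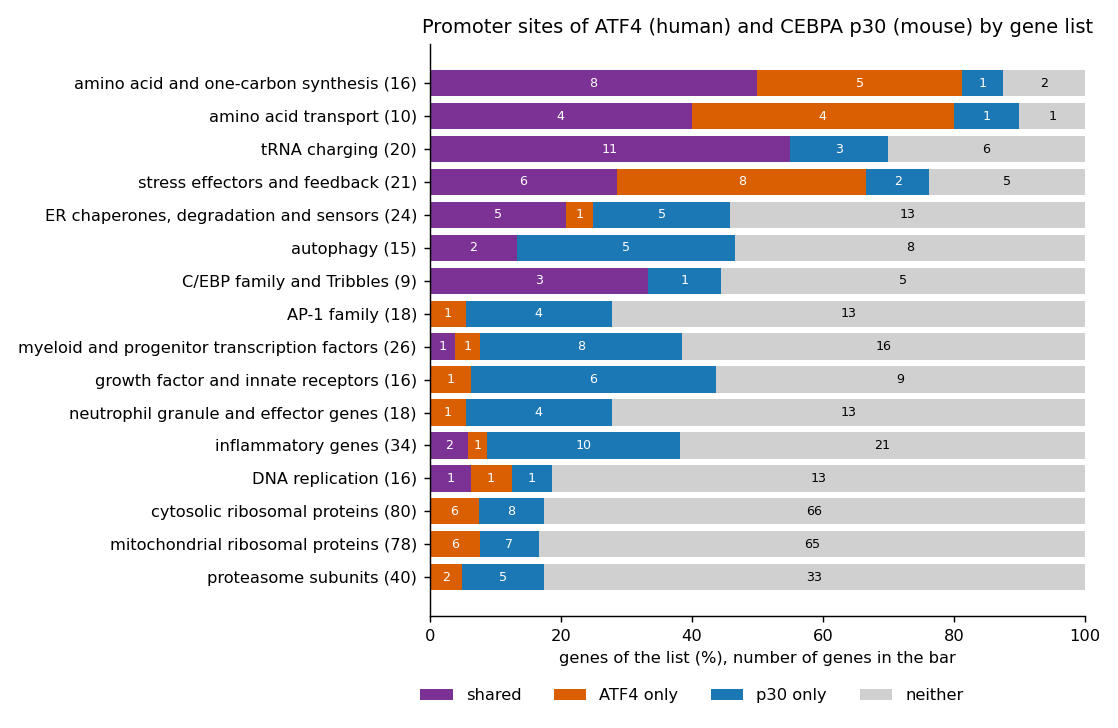
Share of each gene list that was a target of both factors, of ATF4 only, of p30 only or of neither, in percent of the genes of the list. Numbers in the bars are genes, and numbers in parentheses are genes compared. Shared genes reached 11 of 20 for tRNA charging and 0 in the 3 housekeeping lists at the bottom.

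Ranked by both sites together, the 10 best shared genes were BUD31, PDAP1, DDIT3, HERPUD1, KNL1, IARS1, TAL1, PYCR1, SETD5 and STK40. BUD31, a splicing factor gene, and PDAP1 are neighbors that shared 1 pair of summits, with 63.5-fold for ATF4 and 37.1-fold for p30. KNL1, a kinetochore gene, had 29.8-fold and 43-fold. SETD5, a chromatin regulator, had 45.6-fold and 19-fold, and STK40 50.7-fold and 18-fold, with summits at −730 and −650 bp. The 10 best ATF4-only genes were CHAC1, DDIT4, NCOA7, SLC7A11, ABCG1, HSPA9, KLHDC7B, ARHGAP9, TSEN15 and PCK2, with folds of 35.6 to 87.7. ARHGAP9 had the same ATF4 summit as its neighbor MARS1, which was a shared gene. HSPA9, a mitochondrial chaperone, and PCK2 were the only ones of the 10 with an anti-ER p30 site within the limit, HSPA9 also had an anti-ER p42 site, and none of the 10 had an anti-CEBPA p42 site. The best-ranked p30-only genes included PNP, CDKL4, FRS3, TOMM6, FBP2, UPF2, RAB11B, TNC and SLC39A11, with folds of 56.1 to 75.9. FRS3 and TOMM6 shared 1 summit. These 9 also had a site in the other 3 CEBPA lists. Of them, 7 had a C/EBP sequence (TTGCGCAA or TTGCACAA) within 100 bp of the summit, and 1, SLC39A11, the composite element.

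**Figure D3:**
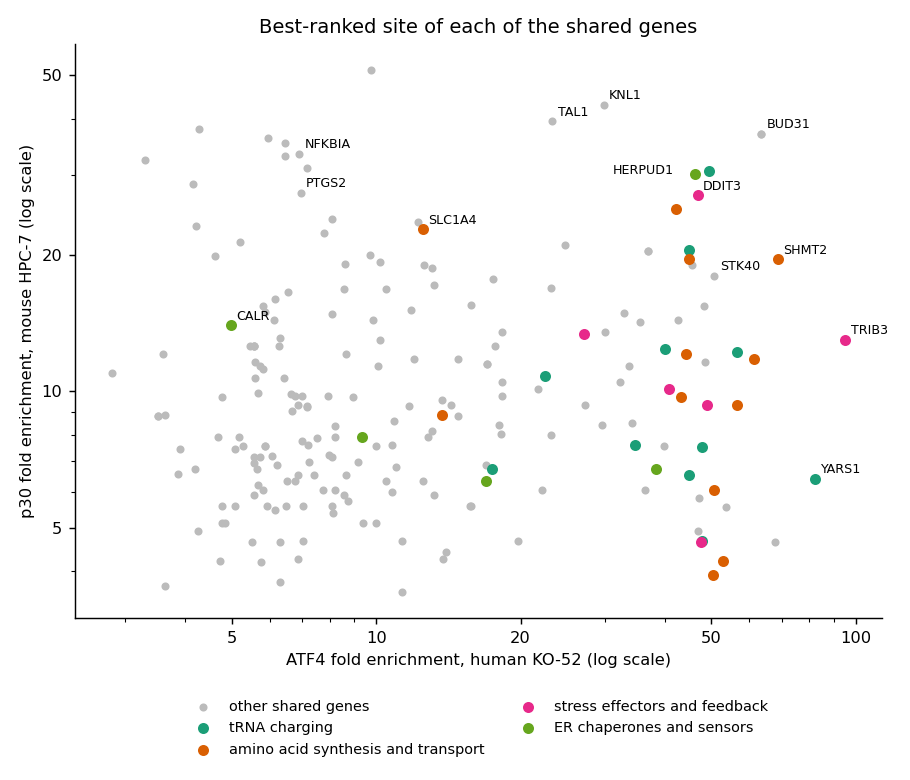
Fold enrichment of the best-ranked ATF4 site (x axis, log scale, human) against that of the best-ranked p30 site (y axis, log scale, mouse) of the 219 shared genes, 1 point a gene. Colored genes of the amino acid, tRNA charging and stress lists lie mostly at high ATF4 fold over a wide range of p30 fold. NFKBIA and PTGS2 lie at low ATF4 fold and high p30 fold.

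The composite element was found in a larger share of p30 sites at shared than at p30-only genes, whereas its shares at the ATF4 sites of both classes were close. Within a window of 200 bp centered on the summit, TGATGCAA was present at 38.4% (32.2 to 44.9) of ATF4 sites of shared genes and 39.5% (35.6 to 43.4) of those of ATF4-only genes, against 0.447% of windows of the same length at human start sites. At p30 sites it was present in 17.4% (12.9 to 22.9) of shared and 4.5% (3.63 to 5.57) of p30-only genes, against 0.36% at mouse start sites. The C/EBP sequences TTGCGCAA and TTGCACAA, counted together, showed the reverse order. They were present at 11.9% (8.23 to 16.8) of shared and 18.1% (16.4 to 20) of p30-only p30 sites, against 0.582% at mouse start sites. The composite letters written backwards (AACGTAGT), as a control, were found at 0% of shared sites in either list and at 0.332% of ATF4-only and 0.225% of p30-only sites. At start sites the control was found in 0.0896% of human and 0.0874% of mouse windows. The cyclic AMP response element TGACGTCA was found at 0% of shared and 1.66% of ATF4-only ATF4 sites, against 1.46% at human start sites. It was found at 0.457% of shared and 0.788% of p30-only p30 sites, against 1.65% at mouse start sites. Of 118 p30 targets with the composite element at the p30 summit, 32.2% (24.4 to 41.1) were ATF4 targets, against 9.64% (8.38 to 11.1) of those without it.

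Both species had the element at the summit in 34 shared genes, and 20 of these belong to the lists for tRNA charging (10 genes), amino acid synthesis and transport, stress effectors and ER proteins. The 10 are all shared tRNA synthetase genes but LARS1. In the 34 genes the 2 summits differed in their distance from the start by a median of 149 bp, and in 13 by at most 100 bp. In the other 185 shared genes the median was 369 bp, and 45 differed by at most 100 bp. Over all 219 the median was 291 bp, and the summits lay on the same side of the start site in 56.6% (50 to 63).

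Among ATF4 targets with the composite element at the human summit, those whose mouse promoter also held it had a p30 site in a larger share of genes. Mouse promoters were searched within 1000 bp of any start site, where 7.75% of all genes compared held the element. Of 91 such ATF4 targets with the element in the mouse promoter, 54.9% (44.7 to 64.8) had a p30 site. Of 231 without it there, 14.7% (10.7 to 19.9) had one, near the 12.1% of all genes. ATF4 targets without the element at the human summit, which made up 135 of the 219 shared genes, also had p30 in a larger share than all genes. It was 37.8% (17 of 45, 25.1 to 52.4) with the element in the mouse promoter and 25.9% (118 of 455, 22.1 to 30.2) without it there. Genes without ATF4 had a p30 site in 20.5% (18.3 to 23) when the mouse promoter held the element and in 10.6% (10.2 to 11.2) when it did not. H3K27ac at the mouse promoter moved with the same shares. With the mark and the element, 44 of 66 ATF4 targets of this kind had p30 (66.7%, 54.7 to 76.8), and without the mark 6 of 25 (24%, 11.5 to 43.4). With the mark but without the element it was 32 of 154 (20.8%, 15.1 to 27.9), and with neither 2 of 77 (2.6%, 0.715 to 8.98). The ATF4-only genes CHAC1, SLC7A11, FGF21 and VLDLR held the element in the mouse promoter but had no H3K27ac there. The ATF4-only genes PHGDH, ATF3 and JDP2 held the element and had the mark, without an anti-CEBPA p30 site.

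**Figure D4:**
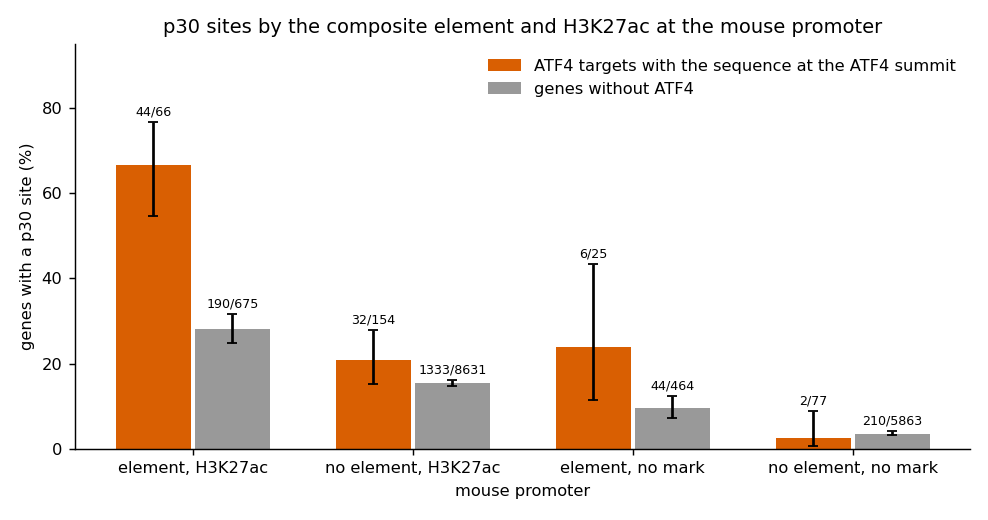
Percent of genes with a p30 site by whether the mouse promoter held the composite element and H3K27ac, for ATF4 targets with the element at the human ATF4 summit (orange) and for genes without ATF4 (grey). Bars carry Wilson 95% intervals and the number of genes. The share was highest, at 66.7%, for ATF4 targets with both features.

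Other lists of HPC-7 cells gave the classes the same order. The 3 other CEBPA lists measure the same p30 fusion or its longer isoform in HPC-7 cells. Of 31851 p30 sites, 20176 overlapped an anti-ER p30 site. High shares of these lists at p30 targets are thus no independent support. An anti-ER p30 site was present at 94.1% (90.1 to 96.5) of shared, 83.8% (82.1 to 85.5) of p30-only, 18.1% (15.2 to 21.3) of ATF4-only and 8.26% (7.81 to 8.73) of remaining genes, against 17.9% of all. The full-length isoform had an anti-CEBPA p42 site at 83.6% (78.1 to 87.9) of shared, 74.7% (72.6 to 76.6) of p30-only, 5.31% (3.78 to 7.4) of ATF4-only and 3.37% of remaining genes, against 12.2% of all. For anti-ER p42 the shares were 78.5%, 67.9%, 6.47% and 3.28%, against 11.4% of all. All 3 of these lists had a site at 156 of the 219 shared genes (71.2%, 64.9 to 76.8) and at 58.6% (56.3 to 60.9) of p30-only genes. H3K27ac of p30 cells marked 93.6% (89.6 to 96.2) of shared, 85.7% (84 to 87.3) of p30-only, 72.6% (68.9 to 76) of ATF4-only and 56.2% of remaining genes, against 60.5% of all. In p42 cells the shares were 93.6%, 86.8%, 73% and 56.1%, also against 60.5%. With the p42 list in place of p30, 215 genes were shared with ATF4, or 26.2% of ATF4 targets, close to the 219 for p30. Among the shared tRNA synthetase genes, WARS1, TARS1 and EPRS1, whose p30 folds were 6.52, 4.66 and 7.61, had no anti-CEBPA p42 site. WARS1 and EPRS1 did have an anti-ER p42 site, and TARS1 had neither.

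**Figure D5:**
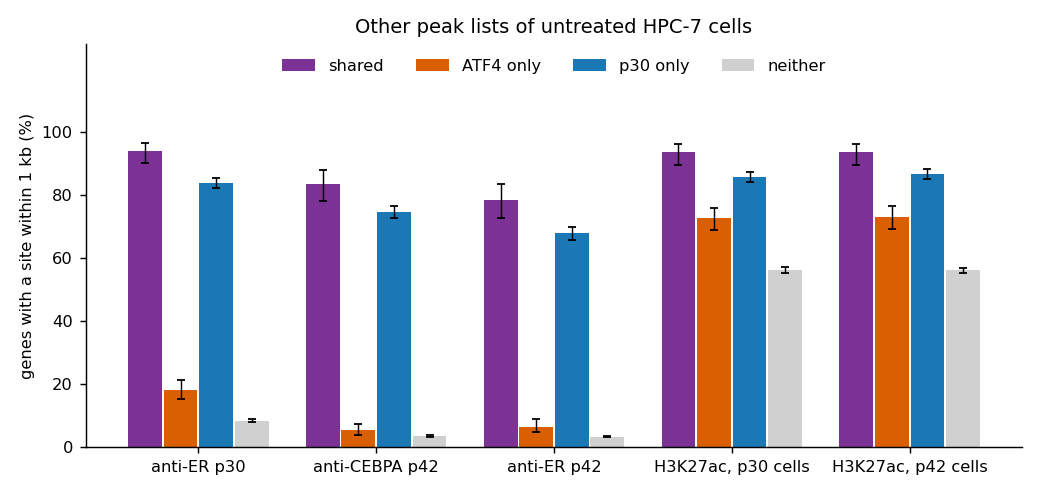
Percent of genes of each class with a summit of another HPC-7 list within 1000 bp of a start site, with Wilson 95% intervals. Shared genes had the highest share in each list, up to 94.1% for anti-ER p30, and ATF4-only genes lay above the genes of neither class.

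Genes with a site of one factor only were compared with genes of neither class, which likewise lack the other factor within 1000 bp. The nearest p30 summit lay a median of 17500 bp from a mouse start site of ATF4-only genes, against 22400 bp for genes of neither class, and within 10 kb in 34% (30.3 to 37.9) against 28% (27.2 to 28.7). The nearest ATF4 summit lay a median of 46700 bp from a human start site of p30-only genes, against 52500 bp, and within 10 kb in 19% (17.2 to 20.9) against 15.1% (14.5 to 15.7). Sites of the other factor were thus somewhat closer to separate targets than to genes of neither class, and this difference was not tested. Over all genes compared, which include targets of the factor itself, the medians were 17700 bp for p30 and 47400 bp for ATF4.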

How the data were processed

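The peak lists were made by the authors from ChIP-seq reads trimmed with Trim Galore (version 0.6.6), aligned with Bowtie2 to hg38 or mm39, freed of duplicates with Picard and called with MACS2 against input. Each deposited list gives for every peak a fold enrichment over the local background, a −log10 p-value and a −log10 q-value, and reaches down to a q of about 0.05. Deposited −log10 p-values and folds were used only to rank or filter sites within their own list. Calling settings possibly differed, since the anti-ER and H3K27ac lists carry a mark of a setting that the ATF4 and anti-CEBPA lists do not. H3K4me1 and LPS lists were not used here.

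Of 16470 ATF4 and 31924 p30 peaks, 16305 and 31851 lay on the numbered chromosomes, X or Y and were kept. No peak ran past a chromosome end of GRCh38 or GRCm39. Start sites came from GENCODE (GRCh38 and GRCm39), with 20007 human and 21738 mouse protein-coding symbols. Equal symbols stood in for orthologs, so genes with different symbols in the 2 species were missed. For each gene the best-ranked summit within 1000 bp of a start gave its fold and distance. The expected overlap was the product of the shares times the number of genes. Sequences and motif positions came from the genomes of the same builds. No test was run, because each list comes from 1 library. The steps were tested on simulated lists.

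Named genes were the 10 shared genes with the lowest sum of rank fractions, the 10 ATF4-only and 10 p30-only genes with the best-ranked site, all shared members of the gene lists, up to 4 others of each list by best rank, and the genes nearest to the limit of 1000 bp. Some genes that this rule names are not reported here. Further members of small groups and the combined gene lists were named after their values were seen. The genes compared, the lists and the alternatives were chosen with earlier results of these data known. Computation used Python 3.11.15 with scipy 1.17.1 for intervals, pandas 2.3.3 and numpy 2.4.6 for tables, and matplotlib 3.10.9 for plots.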

Additional observations from a re-analysis of the deposited data

How the results depend on the processing

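Each list compared rests on 1 library, whose own depth the list does not give, so no spread between replicates is known, and no paired analysis was possible because the result comes from no test. The overlap exceeded the expected count under all 13 alternatives, with ratios of 1.68 to 3.12 beside 2.2. In what follows the number of shared genes, the percent of ATF4 targets with p30, the percent of p30 targets with ATF4 and the ratio are given in this order. With the same number of best-ranked peaks (16305) from each list they were 141, 17.2%, 12.8% and 2.56. With gene starts only they were 107, 21.7%, 7.67% and 2.55. With a limit of 500 bp they were 126, 22.5%, 9.14% and 2.69, and with 2500 bp 441, 31.5%, 14.3% and 1.68. With genes of 1 start site in each species, 1794 in all, they were 9, 20%, 7.83% and 3.12. With the anti-ER p30 list 38.3% of ATF4 targets had p30. Among genes with H3K27ac the percent was 31.9% and the ratio 1.84. The expected count over classes of H3K27ac and start sites gave 1.69. The shorter lists, narrower windows and fewer genes lower the count by construction, and the cause of the changes in ratio was not tested. The q-value limits of 0.01 and 1e-05, assignment of each summit to the nearest gene, p30 sites overlapping an anti-ER site, and the p42 list left every value within the interval of the main one or, for the number of shared genes, within 1.5 times of it.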
